A study of Mus musculus with 6 samples.

Results

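The genes mt-Rnr1 and mt-Rnr2 encode the ribosomal RNAs of the small and the large subunit of the mitochondrial ribosome. They were taken from a table of raw read counts of mouse visual cortex by matching its Ensembl identifiers to the GENCODE annotation of GRCm38 (release M21). Of 55487 genes in the table these 2 were the members, and both were chosen by their measured counts, which were higher in the homozygous mutant libraries. The rule used their share of all counts and their ratio to the mitochondrial mRNAs over all 6 libraries. Their differences between genotypes are therefore given as a description, without a test. The mice (strain B6.CBA/Tar, allele Mmp9em1Iimcb) carried an edited untranslated region of Mmp9, which encodes a secreted matrix metalloproteinase. The labels do not give the bases it altered. The groups were UTRmut (UTRmut/UTRmut, 2 mutant alleles), het (UTRmut/WT, 1 mutant allele) and WT (WT/WT, 0 mutant alleles), with 1 female and 1 male library in each. Cortex was taken at postnatal day 28 in all groups. Total RNA was isolated by phenol and chloroform and made into libraries with a stranded total RNA kit. The labels do not say whether a library held more than 1 animal, so a p-value reflects the scatter among these 6 libraries, which may in part be technical.

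Mitochondria carry their own small circular genome and their own ribosomes, which translate only the mRNAs of that genome into core subunits of the respiratory chain and the ATP synthase. Both strands are transcribed into long precursor RNAs, in which tRNAs lie between the rRNAs and most of the mRNAs. Excision of the tRNAs frees the rRNAs and mRNAs at their ends. The proteins of the mitochondrial ribosome and the enzymes that make, cut, modify and degrade mitochondrial RNA are encoded in the nucleus and imported. Neurons depend heavily on mitochondrial respiration, and their mitochondrial RNA is abundant in total RNA of the cortex.

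The genes of both members lie at the start of the heavy-strand transcription unit, and the windows below show the first bases of mt-Rnr1 and the joins of the rRNAs with mt-Tv and mt-Tl1. The gene mt-Rnr1 (ENSMUSG00000064337) lies at chrM:70-1024 on the plus strand of GRCm38 and is 955 bases long. The gene mt-Rnr2 (ENSMUSG00000064339) lies at chrM:1094-2675 on the same strand and is 1582 bases long. Neither has an intron or an untranslated region in the annotation. The tRNA gene mt-Tv fills the 69 bases between them without a gap, and mt-Tl1 follows mt-Rnr2 directly. In human mitochondria the tRNA gene in the place of mt-Tl1 holds a binding site of a transcription termination factor. These windows are read 5′ to 3′ from the GENCODE transcripts, with bases of ribosomal RNA in capitals and bases of tRNA in lower case, at chrM:70-99, chrM:1010-1039, chrM:1079-1108 and chrM:2661-2690.
mt-Rnr1 start: AAAGGTTTGGTCCTGGCCTTATAATTAATT
mt-Rnr1 to mt-Tv: TGTGCTTGGAATAATcatagtgtagcttaa
mt-Tv to mt-Rnr2: caatgaacactctgaACTAATCCTAGCCCT
mt-Rnr2 to mt-Tl1: AACCTAGAGAAGGTTattagggtggcagag

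The members were close in base composition. Adenine made up 37.8% of the bases of mt-Rnr1 and 38.2% of those of mt-Rnr2, and the share of G and C was 35.8% and 35.4%. Among the annotated transcripts outside the mitochondrial chromosome, 0 matched either member over at least 100 bases at an identity of at least 90%. Copies that are not annotated as transcripts were not searched. The members' counts were thus not split with an annotated near-identical gene, unlike those of some mitochondrial mRNAs.

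Library totals were 9500090 to 11966579 counts. The number of genes detected, with 1 count or more, was 23353 to 23845. After a filter on low counts 16119 genes were tested. Marker genes of cortical neurons were present in every library, with a summed level of 3137 to 3455 CPM (counts scaled to a common library size with TMM factors) over 7 genes. All 7 passed the filter. The kit's label does not say which ribosomal RNAs its probes remove. How fully rRNA was removed from each library is not given either, and its part in the members' shares and ratios was not tested.

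The smaller rRNA, mt-Rnr1, was higher in both UTRmut libraries than in any other library. It had 69942 counts in the UTRmut female and 98216 in the UTRmut male, 42811 and 46032 in the het female and male, and 39603 and 50756 in the WT female and male. On the scaled level these were 6532 and 8547 CPM in UTRmut, 4456 and 4300 CPM in het, and 3819 and 4383 CPM in WT. The het and WT libraries overlapped, and the gap between the lower UTRmut library and the highest of the other 4 exceeded the whole range of those 4. The level averaged 7540 ± 1425 CPM in UTRmut, 4378 ± 111 CPM in het and 4101 ± 399 CPM in WT (SD, n = 2 each). Against WT, UTRmut had a log2 fold of 0.88 (SE 0.12) and het 0.09 (SE 0.12), and against het, UTRmut had 0.78 (SE 0.12). The comparisons with WT share the WT libraries, and the comparisons of UTRmut share the UTRmut libraries.

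The larger rRNA, mt-Rnr2, had more counts than any other gene in every library. It had 618380 counts in the UTRmut female and 941698 in the UTRmut male, 506043 and 491041 in the het female and male, and 458804 and 557546 in the WT female and male. The scaled levels were 57751 and 81953 CPM in UTRmut, 52677 and 45870 CPM in het, and 44247 and 48152 CPM in WT. Here too both UTRmut libraries were above the other 4, but the UTRmut female was close to the het female. The means were 69852 ± 17113 CPM in UTRmut, 49273 ± 4813 CPM in het and 46200 ± 2761 CPM in WT (SD, n = 2 each). Against WT, UTRmut had a log2 fold of 0.60 (SE 0.19) and het 0.09 (SE 0.19), and against het, UTRmut had 0.50 (SE 0.19). Without the UTRmut male, the log2 fold of UTRmut against WT was 0.32 (SE 0.09), and without the UTRmut female it was 0.83 (SE 0.09). Of all 16119 tested genes, 5.86% had both UTRmut libraries above the other 4, so that order alone is common in this table.

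**Figure D1:**
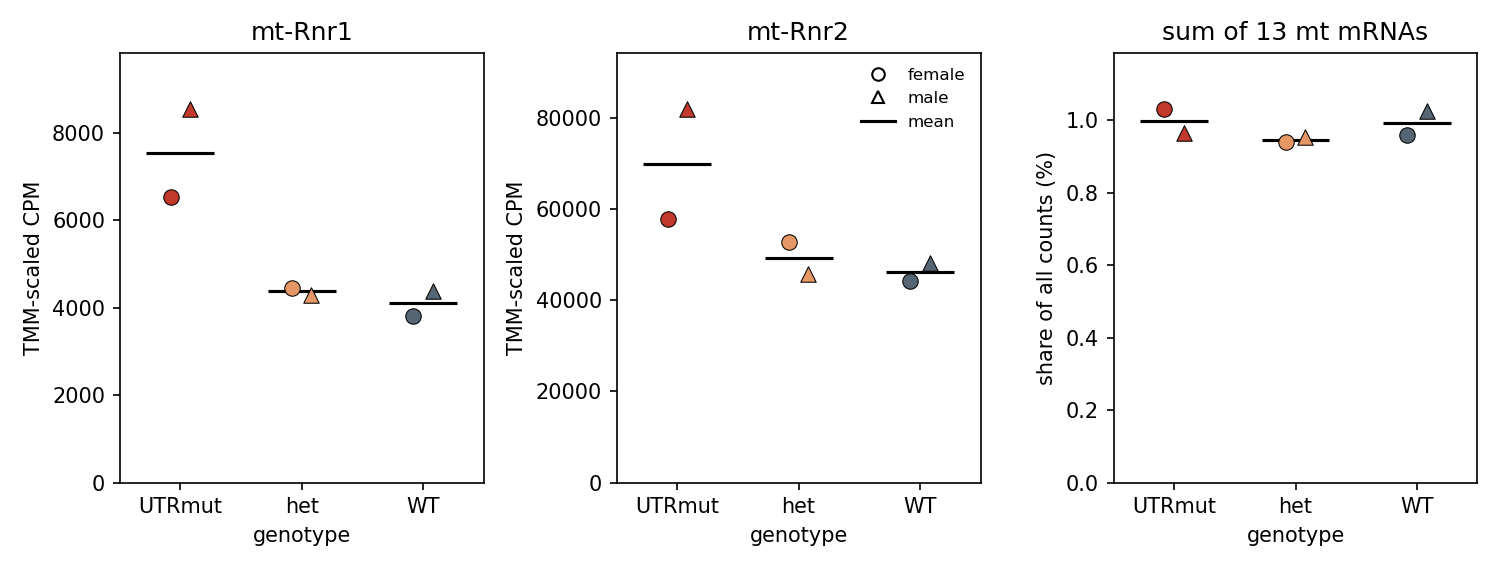
Level of mt-Rnr1 and mt-Rnr2 in TMM-scaled CPM, and the summed 13 mitochondrial mRNAs as a share of all counts in percent, by genotype. Each point is 1 library (circle, female; triangle, male) and each bar the mean of 2; the UTRmut libraries of mt-Rnr1 lie at 6532 and 8547 CPM and the other 4 between 3819 and 4456 CPM, while the mRNA share lies between 0.939% and 1.03% in all 6.

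As a share of all counts, the members together took 6.31% (95% Wilson interval 6.29 to 6.32) in the UTRmut female and 8.69% (8.67 to 8.71) in the UTRmut male. In het they took 5.78% (5.76 to 5.79) in the female and 5.07% (5.05 to 5.08) in the male. The WT libraries had 4.95% (4.94 to 4.97) in the female and 5.23% (5.22 to 5.25) in the male. Intervals cover counting error only, since amplified reads cannot be traced to separate molecules here, and the spread between libraries was far wider than these intervals. The share of mt-Rnr1 alone in UTRmut was 1.76 times that in WT, and the share of mt-Rnr2 alone was 1.45 times. Without the UTRmut female these ratios were 1.98 and 1.68, and without the UTRmut male 1.54 and 1.21. By count, mt-Rnr1 ranked 5 and 4 among all genes in the UTRmut female and male and 6 in each of the other libraries. Among 2254 genes with a mean of at least 100 CPM, the log2 fold of UTRmut against WT ranked 2 for mt-Rnr1 and 6 for mt-Rnr2, counted from the highest. The rank above mt-Rnr1 was held by Bc1, a neuronal noncoding RNA singled out after its values were seen, which had 541 and 1586 CPM in the UTRmut female and male, 613 and 586 CPM in het, and 618 and 454 CPM in WT. Just below mt-Rnr2 stood Gm23935, annotated as a miRNA gene and also singled out, with 561 and 975 CPM in the UTRmut female and male, 533 and 502 CPM in het, and 556 and 483 CPM in WT. Both were highest in the UTRmut male, the library in which the members were highest. At nearby ranks Fos was also highest there (190 CPM). CT010467.1 (a nuclear rRNA gene), ENSMUSG00000095041 and Arc were instead highest in the UTRmut female (2649, 179 and 1105 CPM). The part of these genes in the members' values was not tested.

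The ratio of the members to the mitochondrial mRNAs was part of the choice of the members, so the values of the mRNAs beside them are a description. Their summed share of all counts was 1.03% and 0.966% in the UTRmut female and male, 0.939% and 0.954% in het, and 0.957% and 1.03% in WT. Of their summed counts mt-Co1 held most in every library (71254 of 112478 in the UTRmut female). The ratio of mt-Rnr1 to the summed mRNAs was 0.622 and 0.850 in the UTRmut female and male, 0.480 and 0.455 in het, and 0.411 and 0.426 in WT. Every UTRmut value lay above every value of the other genotypes. For mt-Rnr2 the ratio was 5.50 and 8.15 in UTRmut, 5.67 and 4.86 in het, and 4.76 and 4.68 in WT. The UTRmut female thus lay below the het female in this ratio, and UTRmut and het overlapped, whereas both UTRmut libraries lay above both WT libraries. The mean ratio in UTRmut over that in WT was 1.76 for mt-Rnr1 and 1.45 for mt-Rnr2. For mt-Rnr2 it was 1.73 without the UTRmut female and 1.16 without the UTRmut male.

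Within the pair, the balance between the subunits' rRNAs also differed. There were 8.84 and 9.59 counts of mt-Rnr2 for each count of mt-Rnr1 in the UTRmut female and male, 11.8 and 10.7 in het, and 11.6 and 11.0 in WT. Both UTRmut values were below the other 4, and het and WT overlapped. The mean ratio was 9.21 ± 0.528 in UTRmut, 11.2 ± 0.815 in het and 11.3 ± 0.424 in WT (SD, n = 2 each). Per kb of gene length, the level of mt-Rnr2 was 5.34 and 5.79 times that of mt-Rnr1 in UTRmut, 7.14 and 6.44 times in het, and 6.99 and 6.63 times in WT. Over the 6 libraries the log2 levels of the members had a Pearson r of 0.96 and the same rank order (Spearman rho 1), as a description of libraries in which the UTRmut ones stand apart.

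**Figure D2:**
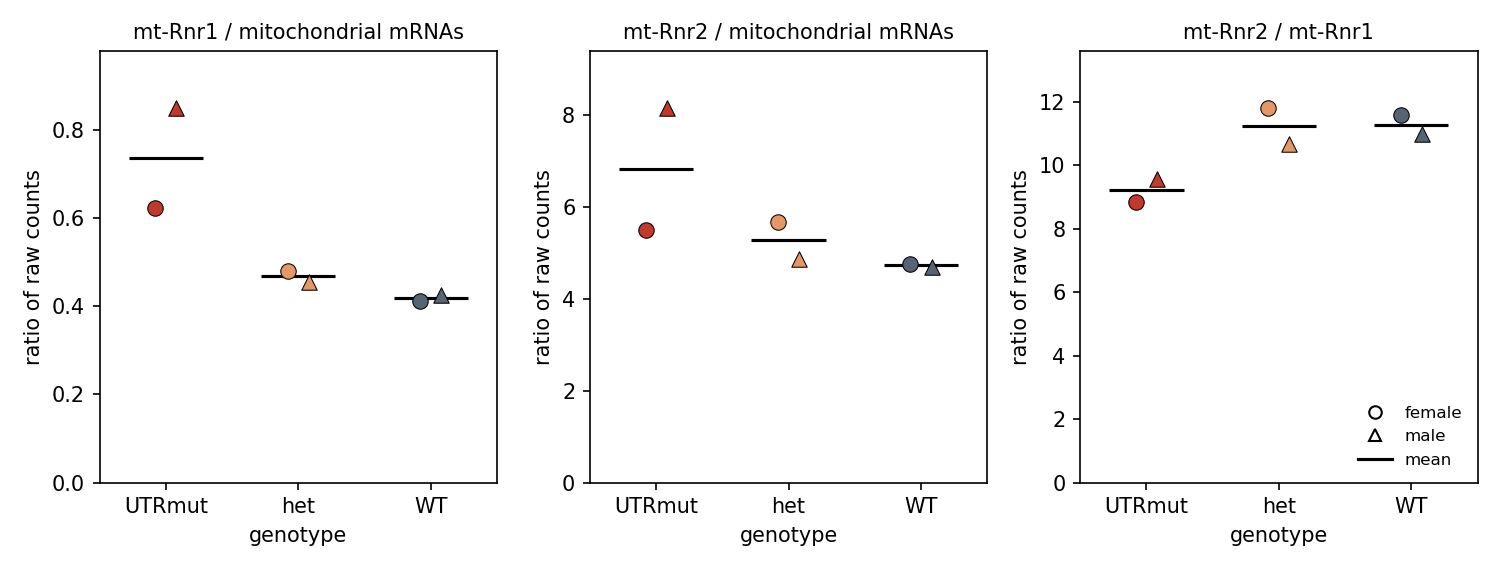
Ratio of raw counts of mt-Rnr1 and of mt-Rnr2 to the summed 13 mitochondrial mRNAs, and of mt-Rnr2 to mt-Rnr1, by genotype. Each point is 1 library (circle, female; triangle, male) and each bar the mean of 2; the ratio of mt-Rnr2 to the mRNAs overlaps between UTRmut (5.50 and 8.15) and het (5.67 and 4.86), and the ratio of mt-Rnr2 to mt-Rnr1 is lowest in UTRmut (8.84 and 9.59).

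Each sex gave the same direction for both members in UTRmut against WT, with 1 library on each side. The members were chosen by these same libraries, so this is a description. In log2 CPM the difference for mt-Rnr1 was 0.77 in females and 0.96 in males, and for mt-Rnr2 it was 0.38 in females and 0.77 in males. Between het and WT, mt-Rnr1 differed by 0.22 in females and -0.03 in males, and mt-Rnr2 by 0.25 in females and -0.07 in males.

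Sex itself was not used in choosing the members, and was tested with genotype in the model. The log2 fold of females against males was -0.18 (SE 0.08) for mt-Rnr1 and -0.14 (SE 0.15) for mt-Rnr2. Of the 2 members 0 passed (edgeR quasi-likelihood test, adjusted p = 0.703 and 0.889 by Benjamini-Hochberg), and 1, mt-Rnr1, had an unadjusted p under 0.05, as did 1127 of all 16119 genes. Over the alternatives in scaling, filter, tool, model and libraries the adjusted p ranged from 0.160 to 0.9999 for mt-Rnr1 and from 0.115 to 0.9999 for mt-Rnr2 (edgeR or DESeq2, Benjamini-Hochberg). Without either UTRmut library the fold of mt-Rnr2 was 0.04. Of all genes tested, 0.00620% were called higher and 0.0310% lower in females.

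Beside the rRNAs, the mitochondrial mRNAs had log2 folds of both signs in UTRmut against WT, and some had opposite signs in females and males. Since the members were chosen relative to these mRNAs, their counts support nothing about the members. The 13 mitochondrial mRNAs encode subunits of complexes I, III and IV and of the ATP synthase. Of these 13, 10 passed the filter on low counts, and 0 of the 10 passed the test in either direction in UTRmut against WT (edgeR, Benjamini-Hochberg). At an unadjusted p under 0.05 there were also 0, DESeq2 called 0 of them, and of all genes tested 0.00620% were called higher and 0% lower. Their median log2 fold was 0.04, with 6 of 10 positive, against a median of -0.01 over all genes tested, of which 47.9% were positive. The median was -0.21 without the UTRmut female and 0.11 without the WT male.

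The nearest neighbour, mt-Nd1, which encodes a membrane subunit of complex I, had 1147 ± 25.2 CPM in UTRmut, 996 ± 61.0 CPM in het and 1125 ± 2.29 CPM in WT (SD, n = 2 each). For UTRmut against WT it had a log2 fold of 0.03 (SE 0.08). By counts, which are uncertain for mRNAs with near-identical annotated copies, the highest mRNA was mt-Co1, which encodes the catalytic subunit of cytochrome c oxidase. It had 71254 and 76836 counts in the UTRmut female and male, 58107 and 69004 in het, and 61634 and 76551 in WT. For UTRmut against WT it had a log2 fold of 0.09 (SE 0.07). In TMM-scaled CPM both UTRmut libraries lay above the other 4 for mt-Nd1 and mt-Co1. In raw counts UTRmut and WT overlapped for both genes. Per library total they overlapped for mt-Co1, whereas for mt-Nd1 both UTRmut libraries lay below both WT libraries. The UTRmut male lay only just below the WT male (1168.62 against 1169.05 CPM per kb). For mt-Cytb, the cytochrome b subunit of complex III, the log2 fold was 0.04 (SE 0.08).

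Of the other complex I genes, mt-Nd2 had a log2 fold of -0.03 (SE 0.19), mt-Nd4 of 0.04 (SE 0.17), mt-Nd5 of 0.14 (SE 0.23) and mt-Nd6 of -0.14 (SE 0.12). All but mt-Nd6 were higher in UTRmut than in WT in females and lower in males. In log2 CPM, UTRmut minus WT was 0.39 in females and -0.44 in males for mt-Nd2, 0.44 and -0.37 for mt-Nd4, and 0.59 and -0.37 for mt-Nd5. In the fit, females minus males in change per mutant allele was 0.40 for mt-Nd4 and 0.48 for mt-Nd5 (edgeR interaction term, Benjamini-Hochberg adjusted p = 0.0232 and 0.00240). Of all genes tested, 1.20% passed. Each combination of sex and genotype held 1 library, so these p-values measure distance from a straight line over alleles, not scatter between replicates. A sex difference cannot be told apart from variation of single libraries. With a library left out, the values ranged from 0.21 to 0.60 and from 0.32 to 0.64. Neither gene passed without the UTRmut female, nor did mt-Nd4 without the WT male or the WT female. The male pair, in which both rRNAs differed most, therefore held the lower values of these mRNAs in UTRmut.

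Counts of the remaining mRNAs were few. The highest counts in any library were 106 for mt-Co2, 85 for mt-Co3 and 29 for mt-Atp6, and mt-Nd3, mt-Nd4l and mt-Atp8 did not pass the filter. The log2 folds for UTRmut against WT were -0.22 (SE 0.25) for mt-Co2, -0.21 (SE 0.21) for mt-Co3 and 0.40 (SE 0.44) for mt-Atp6. Annotated copies on chromosome 1 matched mt-Co2, mt-Co3, mt-Atp6, mt-Nd3 and mt-Nd4l at an identity of at least 98% over 99.6%, 99.9%, 99.6%, 99.1% and 99.0% of their length, and mt-Nd4 over 63.6% and mt-Co1 over 31.3%. Their counts are uncertain where reads match both copies. Per kb of gene length the level of mt-Rnr1, as raw counts scaled to the library total, was 6709 and 8594 CPM in the UTRmut female and male, 4719 and 4548 CPM in het, and 4122 and 4573 CPM in WT. On the same scale mt-Nd1, which has no such copy, was at 1157 and 1169 CPM in UTRmut, 1098 and 1006 CPM in het, and 1213 and 1169 CPM in WT. The small rRNA was thus above its nearest mRNA per unit length in every library, and the gap was widest in UTRmut.

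Mitochondrial tRNAs had few counts. All 22 together had 84 and 74 counts in the UTRmut female and male, 61 and 75 in het, and 64 and 75 in WT. The tRNAs that flank the members, mt-Tf, mt-Tv and mt-Tl1, had 0 counts in every library, which allows up to 3 counts in each. Only mt-Ti, mt-Tw and mt-Tp passed the filter, with log2 folds for UTRmut against WT of 0.02 (SE 0.40), 0.06 (SE 0.40) and 0.34 (SE 0.44), and 0 of these 3 passed the test (edgeR, Benjamini-Hochberg; 0 at an unadjusted p under 0.05, and 0 by DESeq2).

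**Figure D3:**
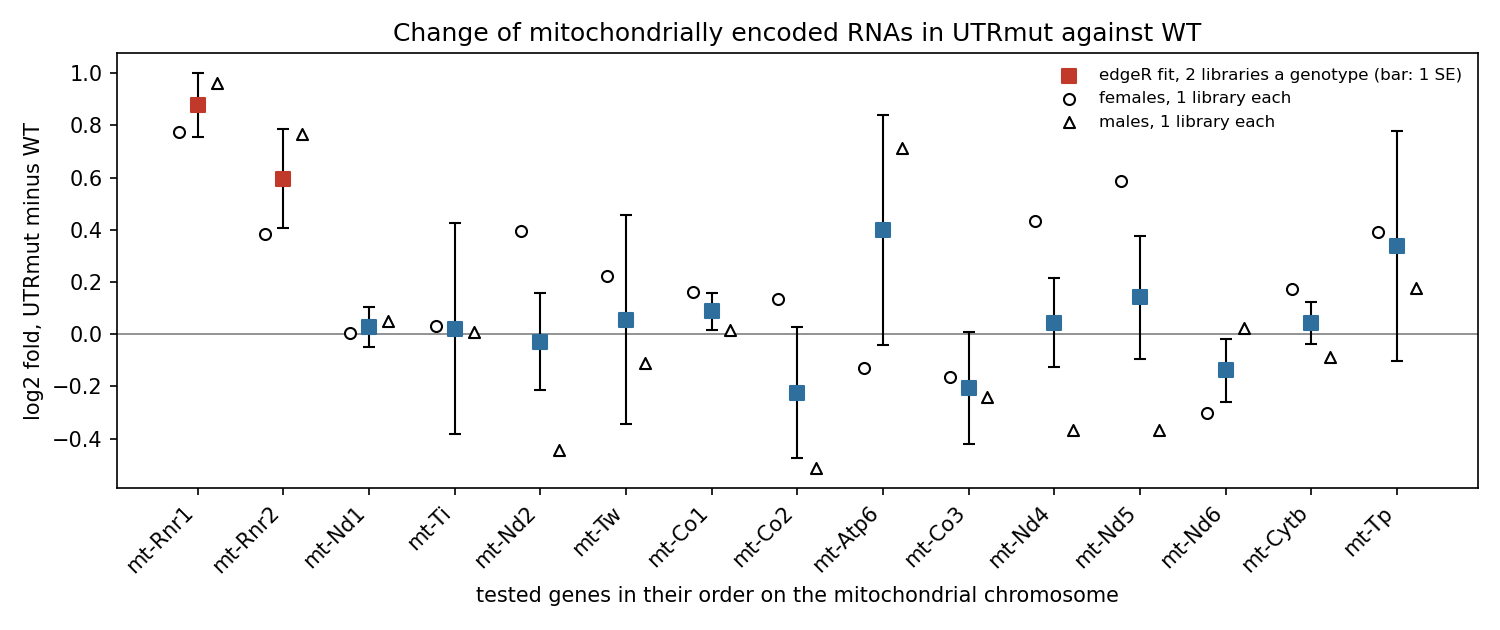
Log2 fold of UTRmut against WT for the 15 tested genes of the mitochondrial chromosome, in their order along it. Squares are the edgeR fit over 2 libraries a genotype with 1 SE (red, rRNAs; blue, mRNAs and tRNAs), open circles the female pair and open triangles the male pair; the rRNAs lie at 0.88 and 0.60 with both sexes positive, while mt-Nd2, mt-Nd4 and mt-Nd5 are positive in females and negative in males.

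A nuclear ribosomal RNA gene was also higher in the UTRmut libraries. CT010467.1 is annotated as rRNA on the minus strand of chromosome 17 (GRCm38, start 39846353, end 39848827), and held 99.5% of the counts of the 354 nuclear genes of that class. It had 28367 counts in the UTRmut female and 22757 in the UTRmut male, 14680 and 12920 in het, and 15235 and 15366 in WT. Its share of all counts was 0.260% and 0.190% in UTRmut, 0.155% and 0.122% in het, and 0.151% and 0.132% in WT, so that both UTRmut libraries lay above the other 4. Its log2 fold, UTRmut against WT, was 0.73 (SE 0.17), which missed the threshold in edgeR (Benjamini-Hochberg adjusted p = 0.999). It passed with DESeq2 (adjusted p = 0.000634), and in edgeR with no filter on low counts (1.88e-11), and over all alternatives the adjusted p ranged from 1.88e-11 to 0.999995 (Benjamini-Hochberg). At a mean of at least 100 CPM its log2 fold ranked 3, between those of the members. Lars2, a protein-coding gene listed with it, had a log2 fold of -0.09 (SE 0.36) in UTRmut against WT. In log2 CPM the difference of Lars2 was 0.52 in females and -0.81 in males.

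The libraries did not rank alike for the nuclear and the mitochondrial rRNAs. CT010467.1 was highest in the UTRmut female, and both members were highest in the UTRmut male. In log2 CPM its difference between UTRmut and WT was 0.85 in females and 0.58 in males, the reverse order of sizes from the members. For each count of CT010467.1 there were 2.47 and 4.32 counts of mt-Rnr1 in the UTRmut female and male, 2.92 and 3.56 in het, and 2.60 and 3.30 in WT, and the groups overlapped. The part of whatever moved CT010467.1 in the members' values was not tested.

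**Figure D4:**
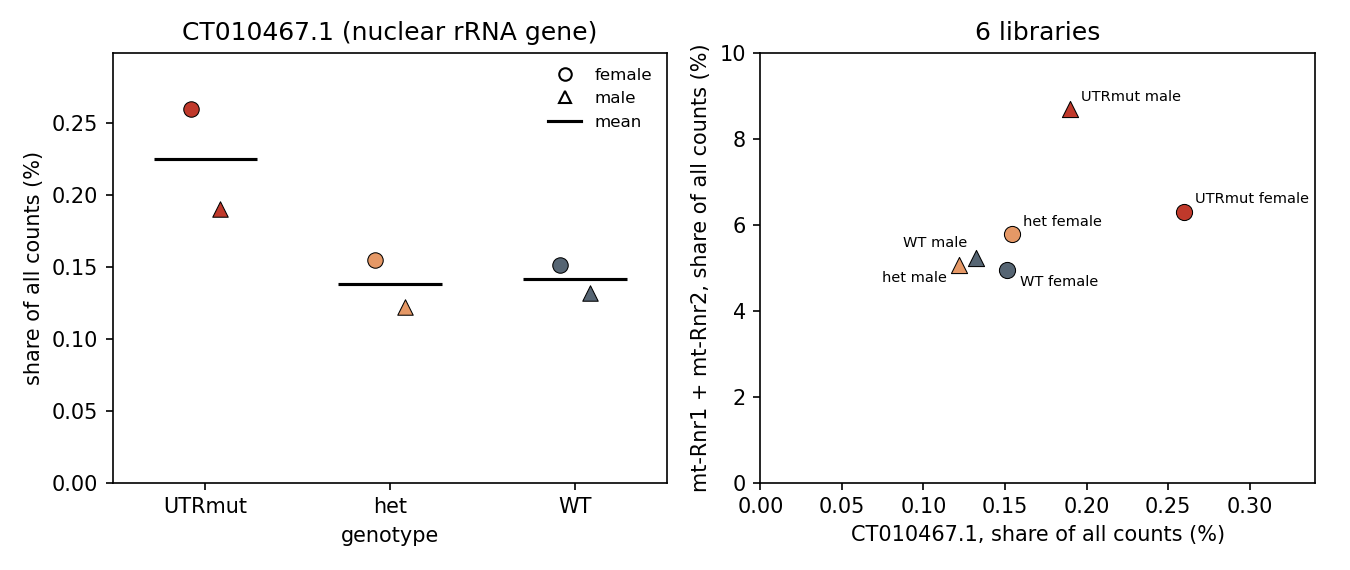
Left, share of all counts of the nuclear rRNA gene CT010467.1 by genotype in percent, 1 point a library (circle, female; triangle, male) with the mean as a bar. Right, the summed share of mt-Rnr1 and mt-Rnr2 against that of CT010467.1 in percent for the 6 libraries; the UTRmut female has the most CT010467.1 (0.260%) and the UTRmut male the most mitochondrial rRNA (8.69%).

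Transcripts of the proteins that bind the members in the mitochondrial ribosome had median log2 folds near 0, and none passed the test. All 32 listed small-subunit genes were tested, with a median log2 fold of 0.04 in UTRmut against WT and 19 positive. Of 51 large-subunit genes 50 were tested, with a median of 0.05 and 36 positive. Of all genes tested, 47.9% were positive. In each list 0 passed in either direction (edgeR, Benjamini-Hochberg), at an unadjusted p under 0.05 there were 0 and 2, and DESeq2 called 0. Both UTRmut libraries lay above both WT libraries for 7 of 32 and 11 of 50 genes, against 14.0% of all genes tested. They lay below both for 2 of 32 and 2 of 50, against 14.6% of all genes tested.

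In the small subunit the largest absolute folds were those of Mrps22 (0.33, SE 0.16), Mrps24 (0.29, SE 0.17) and Mrps34 (0.21, SE 0.16), none of which passed. In the large subunit they were those of Mrpl55 (0.51, SE 0.29), Mrpl3 (0.37, SE 0.12) and Mrpl30 (0.33, SE 0.13), which did not pass either. Mrpl3, a protein of the large subunit, had 51.6 ± 2.51 CPM in UTRmut and 39.97 ± 2.54 CPM in WT (SD, n = 2 each). The summed level of the large-subunit list was 1086 and 1111 CPM in the UTRmut female and male, 987 and 1073 CPM in het, and 997 and 1084 CPM in WT. Both UTRmut sums lay above both WT sums, and the UTRmut female was within 2 CPM of the WT male.

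Genes that make, cut, modify and degrade mitochondrial RNA did not pass either. Of 16 genes for transcription and maintenance of mitochondrial DNA all were tested, 4 were positive and the median log2 fold was -0.09. Both UTRmut libraries lay below both WT libraries for 6 of the 16 and above for 0, against 14.6% and 14.0% of all genes tested. Examples that did not pass were Mterf1b, a paralog of the termination factor (-0.36, SE 0.57), the topoisomerase gene Top1mt (-0.34, SE 0.24) and Rnaseh1, which removes RNA from hybrids with DNA (-0.32, SE 0.23). Mterf1b had only 6 to 14 counts a library, and Mterf1a was at 0.23. Of 16 processing genes 15 were tested, with a median of 0.04 and 9 positive. Among them were Fastkd5, which acts in the release of mRNAs from the precursor (0.40, SE 0.24), Fastkd1 (-0.20, SE 0.21) and Trmt10c, a subunit of mitochondrial RNase P (0.18, SE 0.18).

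Of 20 genes for rRNA modification and assembly 19 were tested, with a median of 0.04 and 10 positive. Tfb1m, which methylates adenines near the end of the small rRNA, had 3.73 ± 0.260 CPM in UTRmut and 4.92 ± 1.22 CPM in WT (SD, n = 2 each; log2 fold -0.39, SE 0.28). The pseudouridine synthase gene Rpusd4 was at -0.37 (SE 0.29) and the endoribonuclease gene Ybey at -0.33 (SE 0.21). All 5 decay genes were tested, with a median of -0.06 and 1 positive. Lactb2, an endoribonuclease of the mitochondrial matrix, was at -0.56 (SE 0.24), the helicase gene Supv3l1 at -0.19 (SE 0.16) and the exonuclease gene Rexo2 at -0.06 (SE 0.15). In these 4 lists 0 genes passed in either direction (edgeR, Benjamini-Hochberg), DESeq2 called 0, and at an unadjusted p under 0.05 there was 1, Lactb2, singled out after its value was seen. The shares called over all genes were 0.00620% higher and 0% lower.

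**Figure D5:**
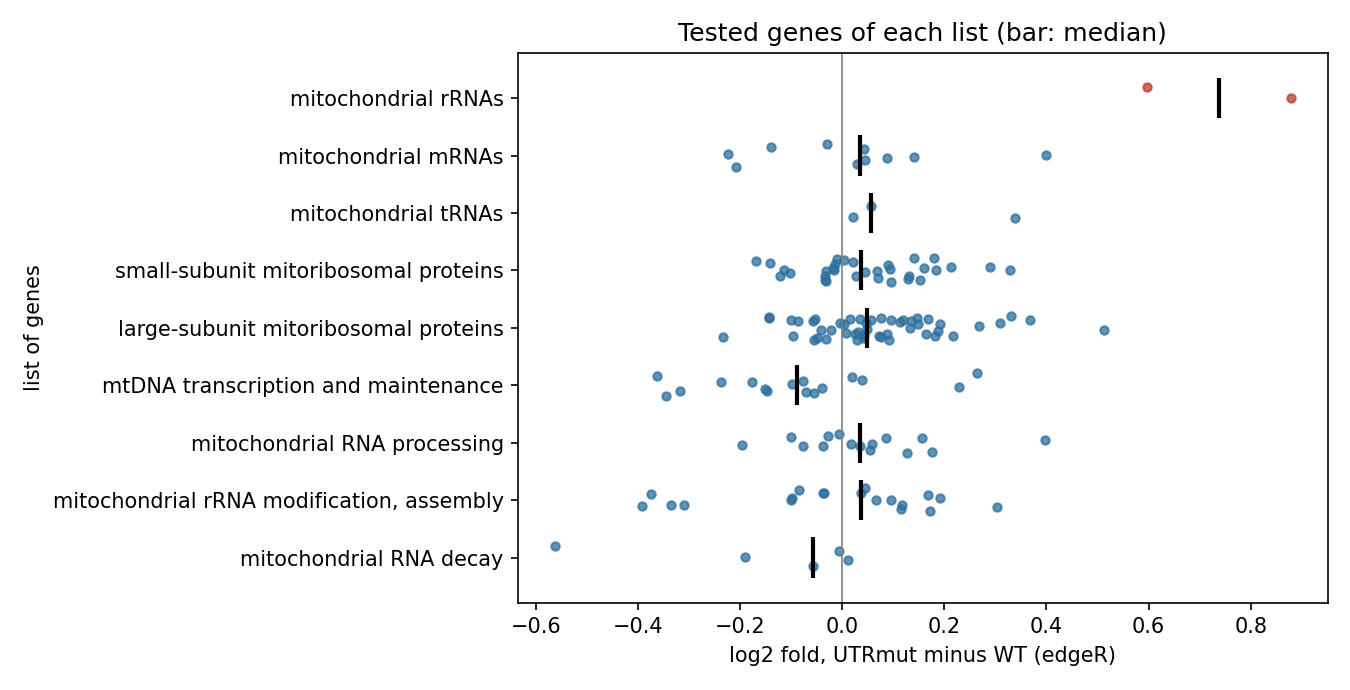
Log2 fold of UTRmut against WT (edgeR) for each tested gene of 9 lists around the mitochondrial ribosome, with the median of each list as a bar. The rRNAs (red, 0.88 and 0.60) were chosen for this difference; the medians of the other lists (blue) lie between -0.09 and 0.06.

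In het against WT the median log2 fold was -0.23 for the 3 tested mitochondrial tRNAs and -0.12 for the 10 tested mRNAs, of which 2 were positive. Among the mRNAs mt-Nd2 was at -0.31 and mt-Nd6 at -0.29. The medians were 0.04 for small-subunit and -0.04 for large-subunit proteins, -0.01 for transcription, -0.02 for processing, 0.02 for rRNA modification and -0.01 for decay, against -0.004 over all genes tested. In each list 0 genes passed (edgeR, Benjamini-Hochberg; 0.0124% of all genes called higher and 0% lower). At an unadjusted p under 0.05 there were 3 of 10 mRNAs and 0 genes of the other 7 lists, against 382 of all 16119 genes. In UTRmut against het, mt-Nd1 and mt-Cytb had log2 folds of 0.20 (SE 0.08) and 0.22 (SE 0.08), which missed the threshold (edgeR, adjusted p = 0.9999 for each by Benjamini-Hochberg; 0% of all genes called higher and 0.0124% lower).

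Among 9692 genes off the mitochondrial chromosome with a mean of at least 10 CPM, the 5 whose log2 CPM over the 6 libraries was most like the mean of the members were Snrpd3, Dip2c, Paxx, Dus1l and Dnajc7, with Pearson r of 0.99, 0.98, 0.98, 0.97 and 0.97. Snrpd3, a core protein of the spliceosome, had 36.3 and 40.0 CPM in the UTRmut female and male, 33.0 and 32.4 CPM in het, and 30.4 and 31.4 CPM in WT. The 5 most opposite were Unc13c, Pacs2, Nrsn2, Trip11 and Tmeff2, with r of -0.99, -0.99, -0.96, -0.96 and -0.96. Unc13c, a synaptic vesicle priming factor, had 39.3 and 37.1 CPM in the UTRmut female and male, 42.1 and 43.4 CPM in het, and 44.9 and 43.1 CPM in WT. The points share their libraries and depth, and r was taken over 6 libraries in which UTRmut stands apart. These genes were picked as the extremes of 9692, so the size of their r follows from the choice. Spearman rho ranged from 0.71 (Dnajc7) to 1 (Paxx), and from -0.71 (Tmeff2) to -1 (Unc13c).

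Levels of other cell types and RNA classes that moved with the libraries are given here, and their part in the members' values was not tested. The summed level of 4 tested red blood cell genes of 5 listed was 150 and 96.8 CPM in the UTRmut female and male, 168 and 176 CPM in het, and 179 and 232 CPM in WT. All 4 were lower in both UTRmut libraries than in both WT libraries, as were 14.6% of all genes, and 0 passed (edgeR, Benjamini-Hochberg; 4 at an unadjusted p under 0.05, as were 437 of all 16119 genes). With DESeq2 1 passed, with no filter on low counts 3, and 1 each without the WT female and without the UTRmut female. Hba-a2 had 0 counts. Of 5 choroid plexus genes 2 were tested, and their sum was 1.96 and 9.14 CPM in UTRmut, 3.54 and 4.39 CPM in het, and 2.60 and 46.8 CPM in WT, with Folr1, Otx2 and Clic6 under the filter. Sums over 6 genes each were 6261 and 5239 CPM in UTRmut, 5595 and 5587 CPM in het, and 4986 and 5669 CPM in WT for astrocytes. For oligodendrocytes they were 2851 and 3746 CPM in UTRmut, 3463 and 3508 CPM in het, and 3586 and 3552 CPM in WT. All 6 oligodendrocyte genes had a negative log2 fold in UTRmut against WT, with a median of -0.10, and 0 passed (edgeR, Benjamini-Hochberg; 0 at an unadjusted p under 0.05, and 0 by DESeq2). The 6 vessel genes summed to 84.9 and 70.4 CPM in UTRmut, 82.5 and 80.8 CPM in het, and 79.1 and 101 CPM in WT. All 6 were negative in UTRmut against WT, with a median of -0.23, 3 lay below both WT libraries, and 0 passed (edgeR, Benjamini-Hochberg; 0 at an unadjusted p under 0.05, and 0 by DESeq2). Microglia had 170 to 204 CPM over all 6 libraries. The share of TEC transcripts, a class of unverified and often unspliced models, was 0.521% and 0.452% in UTRmut, 0.680% and 0.523% in het, and 0.751% and 0.477% in WT. Of 9 other listed RNAs 7 were tested, with a median log2 fold of -0.30 in UTRmut against WT and 2 positive. The largest absolute folds were those of Meg3 (-0.36, SE 0.36), Neat1 (-0.33, SE 0.27) and Rn7s2 (-0.33, SE 0.35), and 0 passed (edgeR, Benjamini-Hochberg). In het against WT 1 of the 7 passed as higher, as did 0.0124% of all genes. In bulk tissue a change in the share of cells and a change of RNA per cell cannot be told apart.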

How the data were processed

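RNA of mouse visual cortex was measured in 6 libraries. Values are whole-number read counts for each Ensembl gene, deposited without normalisation or pooling. The submitters' processing notes list HTSeq 0.6.0, GATK 4.2.3.0, Trimmomatic 0.39 and HISAT2 with the build GRCm38, with no role or order. Not given in the sources used here are the strand setting, the annotation release, filters, and the treatment of reads that match several places, and the last can move counts of duplicated mitochondrial genes. Symbols came from GENCODE M21, and 346 identifiers, with 0.0332% of counts, had none.

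Genes were kept with filterByExpr by genotype (minimum count 10, minimum total 15; 16119 genes, 99.8% of counts), scaled with TMM factors (0.962 to 1.03) and tested with the robust quasi-likelihood fit of edgeR 4.0.16 (R 4.3.3). Adjusted p are Benjamini-Hochberg values over all genes tested, with a threshold of 0.05. All 6 libraries entered each fit, with genotype alone (leaving 3 degrees of freedom), genotype and sex (2), or mutant alleles, sex and their product (2). Each SE was taken from the F statistic as the size of the log2 fold over its root. Log2 CPM used a prior count of 2. Shares and ratios used raw counts, and per-kb levels the annotated gene length. The fit was tested on simulated data of 15883 genes. It recovered 87% of 100 genes changed 2-fold and 99% of 100 changed 4-fold, with 16 false calls. Copies were sought with BLAST 2.17.0.

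The members, lists, tests and alternatives were chosen with earlier results of these data known. The naming rule took the members and the mitochondrial mRNAs, and of each other list the genes that passed or else the 3 with the largest absolute log2 fold; cell type lists are given as sums. Genes most like the members were the 5 highest and 5 lowest by Pearson r over the 6 libraries. Alternatives were other scalings, no filter, DESeq2 1.42.0, a replicate block, other denominators and leaving out each library.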

Additional observations from a re-analysis of the deposited data

Results flagged for a closer look

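The change per mutant allele differed between females and males for mt-Nd4 and mt-Nd5, complex I subunit genes of the mitochondrial chromosome, and for Lars2, the nuclear gene of mitochondrial leucyl-tRNA synthetase. Females minus males was 0.40 (SE 0.08) for mt-Nd4, 0.48 (SE 0.07) for mt-Nd5 and 0.68 (SE 0.10) for Lars2 on the log2 scale per allele (edgeR interaction term, Benjamini-Hochberg adjusted p = 0.0232, 0.00240 and 0.00249). Each combination of sex and genotype held 1 library, so these p-values measure distance from a straight line over alleles, not scatter between replicates. A difference between the sexes cannot be told apart from variation of single libraries. The same test was passed by 1.20% of all genes tested. In log2 CPM the UTRmut minus WT difference of Lars2 was 0.52 in females and -0.81 in males. Without the UTRmut female none of the 3 passed (adjusted p = 0.5999, 0.370 and 0.239, edgeR with Benjamini-Hochberg), without the WT male mt-Nd4 and Lars2 did not (0.731 and 0.101), and without the WT female mt-Nd4 did not (0.124). Over all alternatives the adjusted p ranged from 6.20e-07 to 0.731 for mt-Nd4, 1.24e-09 to 0.370 for mt-Nd5 and 1.44e-12 to 0.239 for Lars2. These alternatives were chosen after seeing the data.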

How the results depend on the processing

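Both members, chosen for being higher in UTRmut, were higher in UTRmut than in WT under every alternative run. Leaving out each library in turn gave log2 folds of 0.67 to 1.06 for mt-Rnr1 and 0.32 to 0.83 for mt-Rnr2, the extremes being without one or the other UTRmut library. Scaling, filter, DESeq2 and the replicate block gave 0.82 to 0.89 and 0.53 to 0.60, with 0.87 and 0.59 under the block. With a library left out, the share of all counts in UTRmut over WT was 1.54 to 1.98 for mt-Rnr1 and 1.21 to 1.68 for mt-Rnr2, and the ratio to mitochondrial mRNAs 1.49 to 2.03 and 1.16 to 1.73. Females against males ranged from -0.30 to -0.08 and from -0.32 to 0.04 in log2 fold with a library left out.

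Counts of genes called depended on the filter, the tool and the libraries. In UTRmut against WT the main counts were 1 higher and 0 lower, against 15 and 12 with no filter, 6 and 2 with DESeq2, and 4 higher with the replicate block; with a library left out they were 2 to 84 higher and 0 to 40 lower, most without WT replicate 2. In het against WT they were 2 and 0, against 8 and 5 with no filter and 1 to 35 and 0 to 6 with a library left out, again most without WT replicate 2. In UTRmut against het they were 0 and 2, against 13 and 15 with no filter, 3 and 4 with DESeq2, 2 higher with the replicate block, and 0 to 5 and 0 to 7 with a library left out. In females against males they were 1 and 5, against 66 and 26 with no filter, 3 higher without TMM factors, 3 with DESeq2 and 3 without genotype in the model, and 1 to 154 and 6 to 44 with a library left out, most without WT replicate 1 and nearly as many (139 and 43) without WT replicate 2. The cause was not tested. CT010467.1 passed under the replicate block (adjusted p = 0.00801, edgeR with Benjamini-Hochberg), and no other named gene gained or lost a call under it. The shared replicate number is the sex of the library; its deviations correlated between genotypes at 0.08 to 0.29 over genes, and with 2 numbers a genotype the block is a hint, not the design. Of 96 such counts 43 stayed within 1.5 times the main value. The Pearson r of Dip2c with the members was 0.78 without TMM factors. Low counts limit the precision for the mitochondrial tRNAs, mt-Co2, mt-Co3 and mt-Atp6.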
